A study of Mus musculus with 15 samples.

Results

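The smooth muscle genes described here were a list of 10 of the 18193 genes measured: Acta2, Actg2, Myh11, Cnn1, Tagln, Des, Smtn, Lmod1, Synpo2 and Myocd. The list was chosen with earlier results of these data known, so the shares of all genes set beside its counts are descriptions. Each of the 10 was read through the probe sets whose annotation names that gene alone. Where a gene had several, the 1 with the highest mean log2(intensity + 16) over all 15 arrays was used, without regard to the groups. All 10 genes were measured and no filter on dim signals was applied. The labels call the tissue lung, and Sftpc of alveolar type 2 cells (11450 to 13081 over all arrays) and Scgb1a1 of airway club cells (14428 to 16192) were high on every array, while other alveolar genes were uneven among the tumours, as given with the other markers.

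RNA of mouse lung was hybridised to single-colour Affymetrix arrays, with 3 arrays in each of 5 groups. At 12 months the groups were lung tumours of double mutant mice and lungs of wild type mice. At 7 months they were whole lungs of double mutant mice, of single mutant mice and of wild type mice, which the series describes as a stage before tumours begin. The labels describe each tumour array as a piece of 1 tumour and each lung array as a piece of whole lung. The double mutant mice carried a homozygous deletion of Smad4, the partner that SMAD proteins share in TGF-beta and BMP signalling, together with that of a second gene. The single mutant mice carried only the second deletion, and the wild type mice neither. All mice were of mixed background, without treatment. The sources used here do not name the cells in which the genes were deleted.

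Smooth muscle in the lung surrounds the bronchi, the pulmonary arteries and the larger veins. Its contraction rests on filaments of smooth muscle actin and myosin, on proteins that bind and bundle the actin, and on intermediate filaments of desmin that tie the contractile units together. Many of these genes are switched on by serum response factor bound to a DNA element called the CArG box, with myocardin as its coactivator, and TGF-beta is a known inducer of several of them. Desmin and myocardin are also made in heart muscle, and Acta2 and Tagln also in myofibroblasts and some pericytes.

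Facts of the arrays that touch every comparison were these. Smad4 itself read 3688, 2965 and 3255 on the tumours and 2870, 2924 and 2664 on wild type lungs at 12 months. At 7 months it read 3345, 3364 and 3166 in double mutant, 2944, 2926 and 2943 in single mutant and 3304, 3194 and 3163 in wild type lungs. Where its probe set lies relative to the deleted stretch is not given, so these values do not check the labels. Xist, an RNA made from the silenced X chromosome of females, was low (64.1 to 237) on all 3 tumours, on wild type array 2 at 12 months (69.8) and on wild type array 3 at 7 months (48.1), and lay between 3678 and 6917 on the other 10 arrays. Eif2s3y, a gene of the Y chromosome, read 1567 to 1908 on the tumours, against 1796 on wild type array 2 and 13.7 and 20.6 on the other wild type lungs of 12 months. Tumours therefore differed from 2 of their 3 wild type lungs in sex as well. At 7 months Eif2s3y read 803 to 889 in double mutant, 625 to 1242 in single mutant and 727, 923 and 1504 in wild type lungs. Thus 8 of the 9 arrays of 7 months, all but wild type array 3, read high for both genes, as RNA of both sexes together would. The labels do not say that lungs were pooled, and the number of animals behind an array of 7 months is not known here. Arrays of 1 group correlated at 0.982 to 0.996 over genes.

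In the lung tumours at 12 months, all 10 smooth muscle genes had a higher mean than in wild type lungs, and 1 of the 10, Myocd, rose past the test. Its level was 1.53-fold that of wild type lungs. Calls were made where the adjusted p fell under 0.05 (limma, Benjamini-Hochberg over all 18193 genes), and 9.23% of all genes were called higher and 6.02% lower in this comparison. For 7 of the 10 genes the 3 tumours all lay above the 3 wild type lungs, against 20.5% of all genes with such a separation upward and 17% downward. The median log2 fold change of the 10 was 0.54, beside 0.0075 over all genes, and the range was 0.28 to 0.76. These are bulk samples, so more cells of a type and more RNA per cell cannot be told apart.

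Acta2 codes for the smooth muscle alpha actin of blood vessels and airways. It read 5613, 6753 and 6764 on the tumours, against 4886, 5818 and 5056 on wild type lungs. The lowest tumour lay below the highest wild type lung, so the groups overlapped. The log2 fold change was 0.28 (95% confidence interval -0.0044 to 0.56) with an adjusted p of 0.168. Its promoter is shown because it was the only one in which a near match to the CArG box was found. Coordinates and sequence are those of RefSeq on assembly GRCm38.p6, chr19:34255324-34255623 on the minus strand, from 250 bases before the start of the gene to 50 bases after it, 5′ to 3′, with the matches in capitals.
Acta2 promoter: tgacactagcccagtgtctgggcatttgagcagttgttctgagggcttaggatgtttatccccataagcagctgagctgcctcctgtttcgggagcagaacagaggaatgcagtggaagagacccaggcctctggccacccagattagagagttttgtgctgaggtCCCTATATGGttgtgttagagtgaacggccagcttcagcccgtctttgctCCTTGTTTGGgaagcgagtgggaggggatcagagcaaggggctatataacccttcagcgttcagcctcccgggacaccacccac
The table of promoters held 6 of the 10 genes (Acta2, Cnn1, Des, Smtn, Lmod1 and Synpo2). The CArG box was searched on both strands as CC, then 6 bases that are each A or T, then GG. None of the 6 promoters held this strict form (0 of 6), which occurs in 1.63% of the 32851 promoters in the table. After this result and after the Acta2 sequence had been read, boxes with 1 G or C among the 6 middle bases were searched too. Such a box occurs in 8.5% of all promoters and was found in 1 of the 6, Acta2, which had 2 of them.
Acta2 box that begins 84 bases before the start site: CCCTATATGG
Acta2 box that begins 34 bases before the start site: CCTTGTTTGG
At least 2 boxes of either form occur in 0.822% of all promoters. A match is a run of letters and not a measured binding site, and boxes outside this window were not looked for.

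Actg2 codes for the gamma actin of visceral smooth muscle. It read 1057, 1206 and 1548 on the tumours, against 550, 1016 and 903 on wild type lungs, without overlap. The log2 fold change of 0.65 had an adjusted p of 0.149. Myh11, the heavy chain of smooth muscle myosin, read 969, 1341 and 1737 on the tumours, against 822, 944 and 883. Its groups did not overlap either, but tumour array 1 lay close to the highest wild type lung. The log2 fold change was 0.57 with an adjusted p of 0.127, and it became 0.78 with an adjusted p of 0.0470 without tumour array 1.

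Among the actin-binding proteins, Cnn1 (calponin, which damps the myosin ATPase) read 803, 1144 and 1369 on the tumours, against 425, 919 and 642 on wild type lungs. The groups overlapped, and the log2 fold change of 0.76, the largest of the 10, had an adjusted p of 0.164. Tagln (transgelin, or SM22 alpha, an actin-bundling protein) read 2389, 2618 and 3106 on the tumours, against 1590, 2210 and 1858, without overlap. Its log2 fold change was 0.52 with an adjusted p of 0.0748. Smtn, which codes for smoothelin of contractile smooth muscle, read 236, 273 and 347 on the tumours, against 201, 214 and 225. Its groups did not overlap and the log2 fold change of 0.38 had an adjusted p of 0.137.

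Lmod1, coding for leiomodin 1, which starts new actin filaments in smooth muscle, was the most uneven gene in the tumours. It read 66.3, 27.4 and 90.7 on the tumours, against 28.6, 53.2 and 33.1 on wild type lungs. Tumour array 2 lay below all 3 wild type lungs and tumour arrays 1 and 3 above them. The log2 fold change was 0.44 with a 95% confidence interval of -0.41 to 1.29 and an adjusted p of 0.454. Synpo2, coding for synaptopodin 2, an actin-bundling protein of the Z-disc and of smooth muscle, read 321, 387 and 518 on the tumours, against 232, 284 and 237, without overlap. Its log2 fold change was 0.65 with an adjusted p of 0.0636, the smallest after that of Myocd.

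Des, the intermediate filament protein desmin, read 741, 731 and 1003 on the tumours, against 452, 649 and 606 on wild type lungs. The groups did not overlap, and the log2 fold change of 0.52 had an adjusted p of 0.111. Myocd, the coactivator myocardin, read 124, 142 and 156 on the tumours, against 84.5, 93.8 and 80.8 on wild type lungs. All 3 tumours lay clear of the wild type lungs. Its log2 fold change was 0.61 (95% confidence interval 0.35 to 0.87) with an adjusted p of 0.0179. The call was lost without wild type array 1 (adjusted p 0.0653), without wild type array 3 (0.0682) and without tumour array 3 (0.0524), with fold changes of 0.54 to 0.69 over the 6 fits that each left out 1 array.

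**Figure D1:**
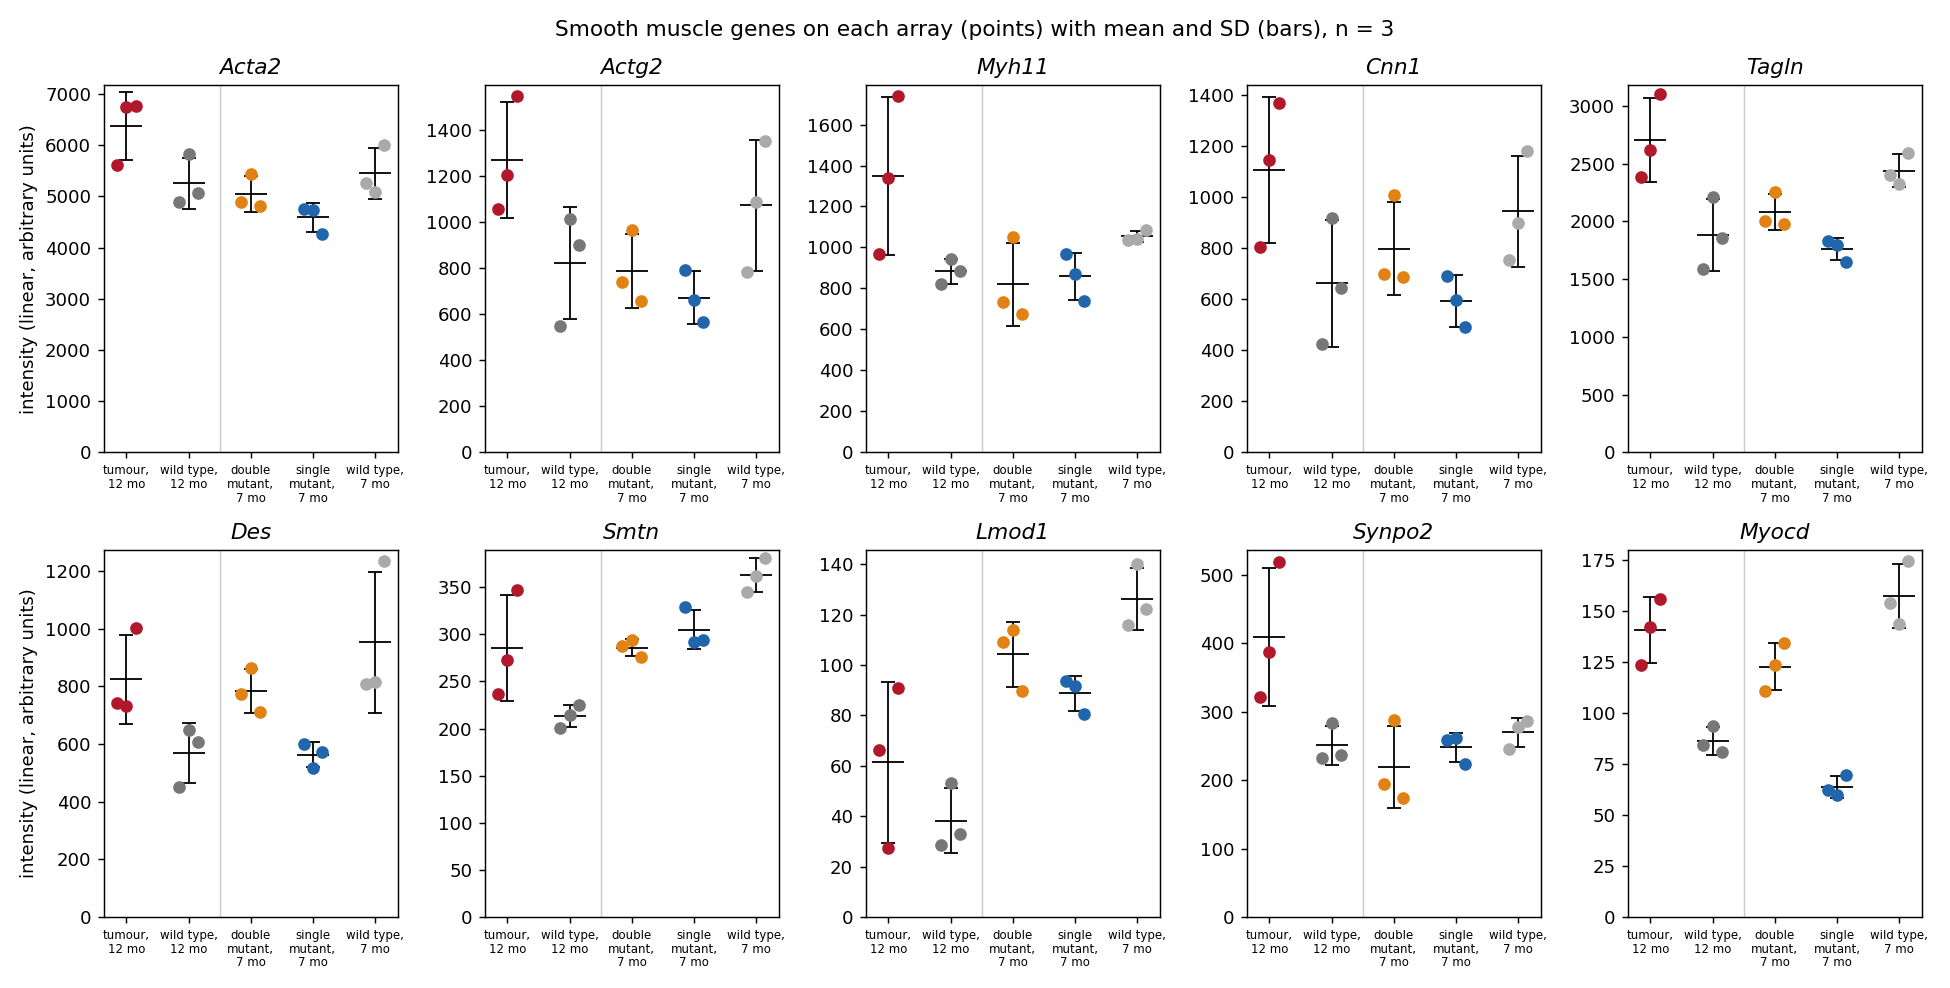
Intensity of each smooth muscle gene (linear scale, arbitrary units, axes from 0) on each of 15 arrays, as points, with the group mean and SD as bars (n = 3 per group). Tumours lie above wild type lungs of 12 months for 7 of the 10 genes without overlap, and Myocd shows the lowest single mutant values, 59.8 to 69.8 against 144 to 174 in wild type lungs of 7 months.

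The 3 tumours differed in how far the 10 genes stood above wild type. Against the wild type mean of the month, the mean log2 difference of the 10 genes was 0.33, 0.45 and 0.83 on the 3 tumours, and it was -0.23, 0.22 and 0.0053 on the 3 wild type lungs. Tumour array 3 held the highest of the 3 tumour values for all 10 genes, and tumour array 1 the lowest for 8. Tumour array 3 also had the lowest summed intensity of 10 alveolar and airway markers and the highest of the cardiac, skeletal, pericyte and fibroblast markers among the tumours, and the part of these in its smooth muscle values was not tested. Wild type array 2, the only wild type lung of 12 months with low Xist, held the highest wild type value for 9 of the 10 genes, all but Smtn. With sex as a block in the fit, 0 of the 10 genes were called and the log2 fold change of Myocd was 0.51 with an adjusted p of 0.207. That fit called 1 gene among all genes. As all 3 tumours had low Xist, its tumour effect rested on wild type array 2 alone, so it cannot decide what part sex had. Against wild type array 2 alone, with the other wild type lungs of 12 months left out, the log2 fold changes ran from 0.068 for Lmod1 to 0.51 for Myocd. This is the same comparison and not a second check.

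Cardiac muscle markers were higher on the same tumours, and their part in the smooth muscle values was not tested. All 13 of 13 were called higher, with summed intensities of 36398 to 42538 on the tumours and 14010 to 20584 on wild type lungs. Mouse pulmonary veins carry such muscle. Wild type array 2 had the highest sum of both the smooth muscle genes and the cardiac markers at 12 months. Skeletal muscle markers summed to 1144 to 1496 on the tumours and 762 to 955 on wild type lungs, with 2 of 12 called higher. Most of this separation came from Ckm (means of 395 on tumours and 165 on wild type lungs) and Myl1 (406 and 129). Skeletal actin Acta1 averaged lower on the tumours (209 and 276), and the skeletal myosins Myh1, Myh2 and Myh4 averaged under 16 in both groups. By gene, 9 of the 12 lay above wild type and 3 below.

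Alveolar and airway markers were uneven among the tumours. The 10 summed to 71918, 80318 and 61635 on the tumours, against 77759 to 78657 on wild type lungs, and 4 of the 10 lay above wild type and 6 below. Only Foxj1, a factor of ciliated cells, was called (log2 fold change 1.09, adjusted p 0.0142). Ager, of alveolar type 1 cells, read 5377, 7257 and 2716 on the tumours, against 8356 to 8804 on wild type lungs, and Hopx read 5465, 5767 and 3755, against 6641 to 7446. Sftpa1, a surfactant protein gene of type 2 cells, read 9900, 13610 and 6026, against 13145 to 13629, and Sftpb 6897, 8798 and 5116, against 8179 to 9596. Tumour array 3 was the lowest for all 4. The log2 fold changes were -0.86, -0.51, -0.52 and -0.39 in this order of genes, with adjusted p values of 0.105 to 0.270.

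Of 6 mesothelial markers 2 rose in tumours, Msln (log2 fold change 2.90, adjusted p 0.00669) and the keratin Krt19 (1.70, adjusted p 0.00573), which is also made in epithelium. Lrrn4 fell (-1.19, adjusted p 0.0419), and Upk3b, Bnc1 and Wt1 lay below wild type without a call. The 6 summed to 9033, 6217 and 8930 on the tumours, against 2174 to 2961 on wild type lungs, a separation carried by Msln and Krt19.

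Pericyte and fibroblast markers moved in both directions. Of 12 pericyte markers 3 rose (Rgs5, which damps G protein signals, by a log2 fold change of 2.98, and the potassium channel subunits Kcnj8 by 1.24 and Abcc9 by 1.08) and 3 fell (Notch3, Higd1b and Gja4). Their summed intensity was 7418 to 9888 on the tumours and 6750 to 7236 on wild type lungs. By gene, 5 of the 12 lay above wild type and 7 below, with a median log2 fold change of -0.33. Of 13 fibroblast and matrix markers 2 rose and 3 fell, with sums of 31898 to 45741 on the tumours and 32994 to 38312 on wild type lungs. Of 13 endothelial markers 0 rose and 8 fell, with sums of 10249 to 16292 on the tumours and 22356 to 25262 on wild type lungs. No marker of these 3 lists, nor of the mesothelial and alveolar ones, had a group mean under 16. The probe sets for 18S ribosomal RNA averaged 1700 on the tumours and 6381 on wild type lungs. The part of these shifts in the smooth muscle values was not tested.

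**Figure D2:**
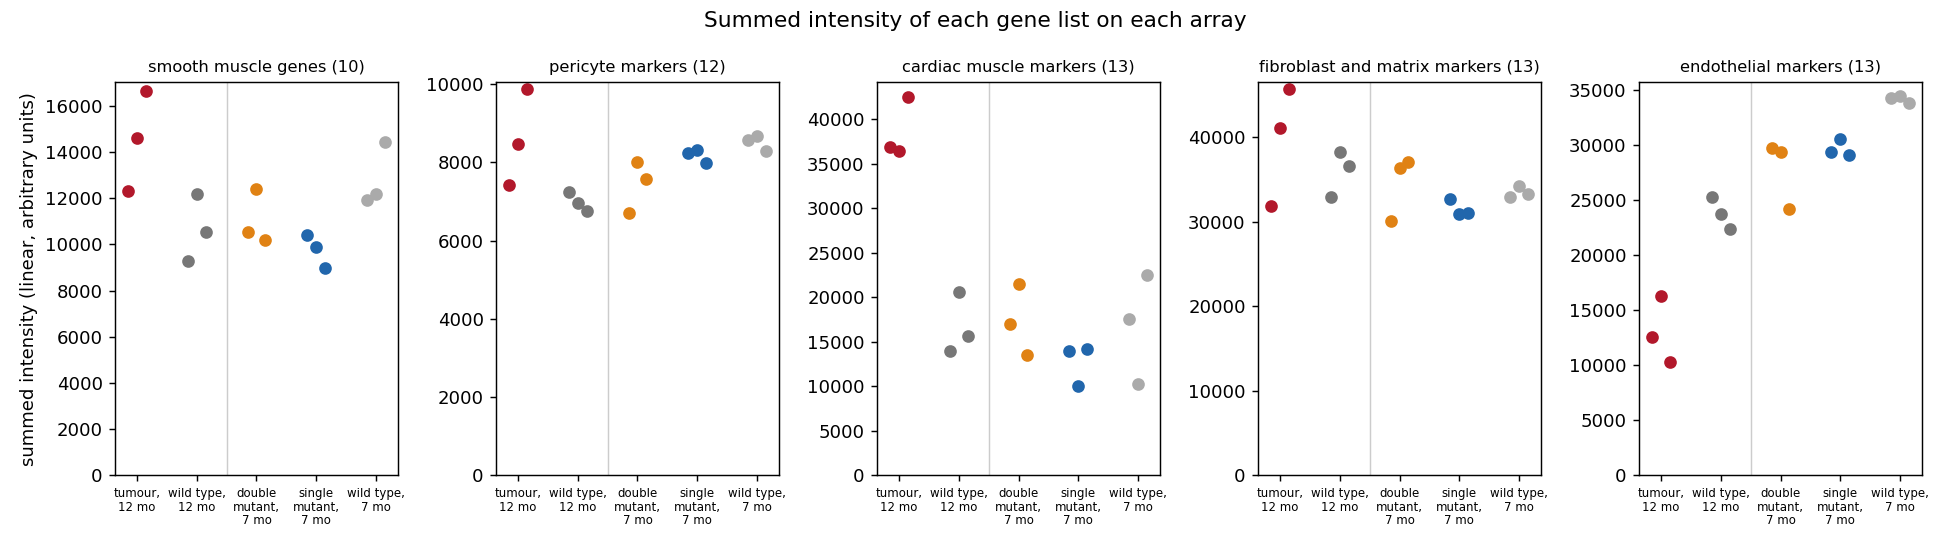
Summed intensity (linear scale, arbitrary units, axes from 0) of the 10 smooth muscle genes and of 4 marker lists on each array, with the number of genes in brackets. Tumours sum to 12320 to 16640 for smooth muscle genes against 9270 to 12202 in wild type lungs of 12 months, while their cardiac sums are separated further and their endothelial sums lie below. Bright genes carry these sums: Acta2 averaged 6377 on tumours and 5253 on wild type lungs of 12 months, and Myocd 141 and 86.4.

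At 7 months, before tumours, the 10 genes lay on the other side of wild type in both mutant genotypes. All 10 had a lower mean in double mutant than in wild type lungs and all 10 in single mutant than in wild type lungs. In double mutant lungs 1 gene fell past the test, Smtn, and in single mutant lungs 4 did: Tagln, Des, Lmod1 and Myocd. Myocd was lower by the most, at 2.17-fold in single mutant lungs. Both comparisons use the same 3 wild type arrays, so their directions are not independent.

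In double mutant lungs 0 of the 10 genes were called higher and 1 lower, where 6.42% of all genes were called higher and 1.39% lower. For 4 of the 10 (Tagln, Smtn, Lmod1 and Myocd) all 3 double mutant lungs lay below all 3 wild type lungs, and for 0 above, against 10.9% of all genes downward and 15.2% upward. The median log2 fold change of the 10 was -0.28, beside 0.0064 over all genes. In single mutant lungs 0 were called higher and 4 lower, where 9.79% of all genes were called higher and 5.4% lower. For 8 of the 10, all but Actg2 and Synpo2, the single mutant lungs lay wholly below wild type, and for 0 above, against 15.6% of all genes downward and 20% upward. The median log2 fold change was -0.45, beside 0.016 over all genes.

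For the actins and myosin no call was made in either genotype. Acta2 read 4881, 5445 and 4815 in double mutant, 4758, 4736 and 4269 in single mutant, and 5260, 5077 and 6008 in wild type lungs. Every single mutant lung lay below wild type, while double mutant array 2 lay among the wild type lungs. The log2 fold changes were -0.11 in double mutant lungs (adjusted p 0.525) and -0.25 in single mutant lungs (adjusted p 0.104). Actg2 read 743, 969 and 657 in double mutant, 792, 661 and 565 in single mutant, and 784, 1087 and 1353 in wild type lungs. Wild type array 1 overlapped both mutants, and the log2 fold changes of -0.42 and -0.64 for double and single mutant lungs had adjusted p values of 0.295 and 0.0867. Without wild type array 1 the single mutant value was -0.85 and was called (adjusted p 0.0341).

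Myh11 read 733, 1052 and 677 in double mutant, 970, 869 and 738 in single mutant, and 1038, 1040 and 1087 in wild type lungs, where it was nearly level. Double mutant array 2 reached the wild type range and the other 2 lay well below it. The log2 fold change was -0.38 in double mutant lungs (adjusted p 0.198), and -0.57 and called without double mutant array 2 (adjusted p 0.0336). In single mutant lungs it was -0.30 with an adjusted p of 0.267.

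Among the actin-binding proteins, Tagln read 2006, 2259 and 1978 in double mutant, 1832, 1799 and 1652 in single mutant, and 2401, 2323 and 2596 in wild type lungs. The 3 groups did not overlap, with single mutant lungs lowest. Tagln fell 1.38-fold in single mutant lungs (log2 fold change -0.47, 95% confidence interval -0.65 to -0.28, adjusted p 0.00565), and this call held in all 6 fits that left out 1 array. For double mutant lungs the value was -0.23 with an adjusted p of 0.128. Cnn1 read 699, 1008 and 688 in double mutant, 692, 597 and 489 in single mutant, and 755, 898 and 1181 in wild type lungs. Only single mutant lungs were separated from wild type, and neither log2 fold change was called (-0.24 with an adjusted p of 0.554 for double mutant lungs, -0.65 with 0.0706 for single mutant lungs).

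Smtn read 288, 294 and 276 in double mutant, 329, 292 and 294 in single mutant, and 345, 362 and 381 in wild type lungs. The double mutant values were tight and clear of wild type, and single mutant lungs, also below wild type, overlapped them. Smtn fell 1.25-fold in double mutant lungs (log2 fold change -0.33, 95% confidence interval -0.49 to -0.16, adjusted p 0.0266). This call was kept only without wild type array 1 and was lost without wild type array 2 or 3 or any 1 of the double mutant arrays (adjusted p 0.0601 to 0.0793). In single mutant lungs the value was -0.24 with an adjusted p of 0.0553.

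Lmod1 read 109, 114 and 89.7 in double mutant, 93.7, 91.8 and 80.7 in single mutant, and 116, 140 and 122 in wild type lungs. Both mutants lay below wild type without overlap, though double mutant array 2 came close. The gene fell 1.36-fold in single mutant lungs (log2 fold change -0.44, adjusted p 0.0227), a call kept only without wild type array 1 and lost without any other single array (adjusted p 0.0522 to 0.0837). The double mutant value was -0.24 with an adjusted p of 0.196. Synpo2 read 195, 287 and 174 in double mutant, 259, 262 and 224 in single mutant, and 245, 277 and 287 in wild type lungs, so all 3 groups overlapped. Its log2 fold change of -0.31 in double mutant lungs (adjusted p 0.300) became -0.51 with a call without double mutant array 2 (adjusted p 0.0361). In single mutant lungs it was -0.11 (adjusted p 0.714), but another Synpo2 probe set gave -0.73 there without a call (adjusted p 0.0517).

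Des read 773, 863 and 713 in double mutant, 600, 516 and 574 in single mutant, and 809, 816 and 1235 in wild type lungs. Wild type array 3 stood high, and single mutant lungs lay below all others. Des fell 1.64-fold in single mutant lungs (log2 fold change -0.72, 95% confidence interval -1.08 to -0.35, adjusted p 0.0191). The value was -0.52 and still called without wild type array 3, and the call was lost without single mutant array 2 (adjusted p 0.0705) or 3 (0.0563). The double mutant value was -0.25 with an adjusted p of 0.397.

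Myocd gave the clearest separation of the 3 groups. It read 111, 123 and 134 in double mutant, 62.1, 59.8 and 69.8 in single mutant, and 154, 144 and 174 in wild type lungs. No group overlapped another, with single mutant lungs lowest and double mutant lungs between them and wild type. In single mutant lungs Myocd fell 2.17-fold (log2 fold change -1.12, 95% confidence interval -1.33 to -0.90, adjusted p 0.000201), and the call held in all 6 fits that left out 1 array, with values of -1.17 to -1.05. In double mutant lungs the value was -0.32 (95% confidence interval -0.54 to -0.10) with an adjusted p of 0.0806. A second, much dimmer Myocd probe set gave 0.12 in single mutant and 0.16 in double mutant lungs, without a call.

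**Figure D3:**
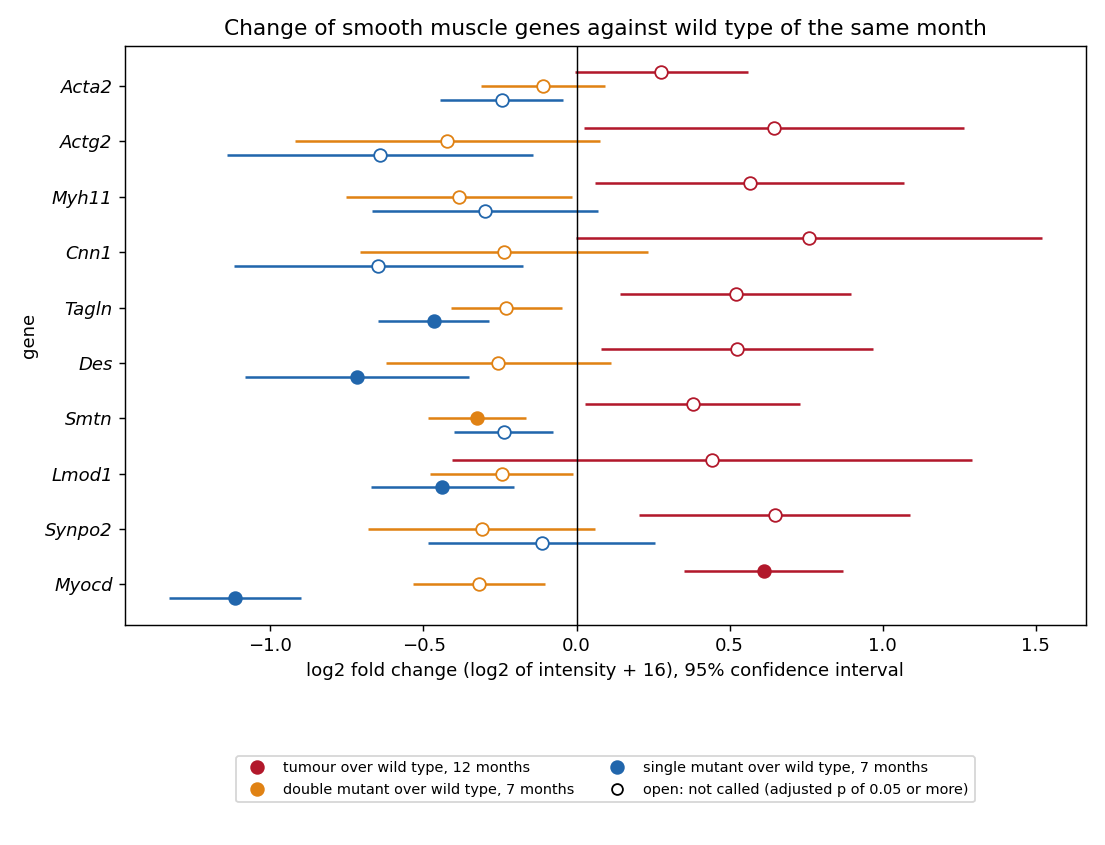
Log2 fold change of each gene, on the log2(intensity + 16) scale, with its 95% confidence interval: lung tumours over wild type lungs at 12 months, double mutant over wild type lungs at 7 months and single mutant over wild type lungs at 7 months (3 arrays per group). Filled points passed the test: Myocd in tumours, Smtn in double mutant lungs, and Tagln, Des, Lmod1 and Myocd in single mutant lungs. All tumour points lie right of 0 and all points of 7 months left of it.

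Array by array, the double mutant lungs were the less even of the 2 genotypes. The mean log2 difference of the 10 genes from the wild type mean was -0.35, -0.086 and -0.42 on the double mutant arrays and -0.39, -0.49 and -0.60 on the single mutant arrays, with -0.13, -0.031 and 0.16 on the wild type arrays themselves. Double mutant array 2 held the highest double mutant value for 9 of the 10 genes, all but Myocd, and its mean lay between those of the wild type arrays. Wild type array 3, the only lung of 7 months with low Xist, held the highest wild type value for 9 of the 10 genes, all but Lmod1. Without it 0 of the 10 genes were called in double mutant lungs, and 3 in single mutant lungs (Tagln, Des and Myocd).

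Markers of other cell types were read on the same arrays. Cardiac markers summed to 13521 to 21480 in double mutant, 10052 to 14185 in single mutant and 10282 to 22496 in wild type lungs. Of 13 cardiac markers 1 rose in double mutant lungs, the atrial hormone gene Nppa (log2 fold change 3.65, adjusted p 0.0110), and 0 were called in single mutant lungs. Wild type array 3 had the highest cardiac sum of the wild type lungs and double mutant array 2 that of the double mutant lungs. Pericyte markers summed to 6707 to 8005 in double mutant, 7976 to 8313 in single mutant and 8282 to 8682 in wild type lungs, with 1 of 12 lower in each mutant, Mcam. Endothelial markers summed to 24154 to 29684, 29124 to 30562 and 33775 to 34483 in the same order of groups, with 3 of 13 lower in each mutant.

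Single mutant array 3 stood apart for skeletal muscle markers, with a sum of 1296, against 507 to 748 on all other arrays of 7 months. The skeletal myosin gene Myh1 read 263 on it and at most 22.4 on the others, and the skeletal actin gene Acta1 126 and at most 25.5. Of the 12 skeletal markers 0 were called in double mutant lungs, and in single mutant lungs Pvalb rose and Myl1 fell. Without that array 2 of the 10 smooth muscle genes were called in single mutant lungs, Tagln and Myocd. Fibroblast and matrix markers summed to 30062 to 37110 in double mutant, 30942 to 32726 in single mutant and 32899 to 34273 in wild type lungs. Of these 13, 0 were called in double mutant lungs, and in single mutant lungs Pdgfra fell (log2 fold change -0.50) and Cthrc1 rose (1.09).

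Mesothelial markers summed to 3609 to 4408, 3391 to 3674 and 2964 to 3379 in the same order of groups, with Krt19 higher and Upk3b and Wt1 lower in each mutant. Alveolar and airway markers summed to 82988 to 88557, 80709 to 83236 and 83060 to 84792. Foxj1 rose in each mutant and Sftpb fell in single mutant lungs (-0.23, adjusted p 0.0406). The part of all these markers in the smooth muscle values was not tested.

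**Figure D4:**
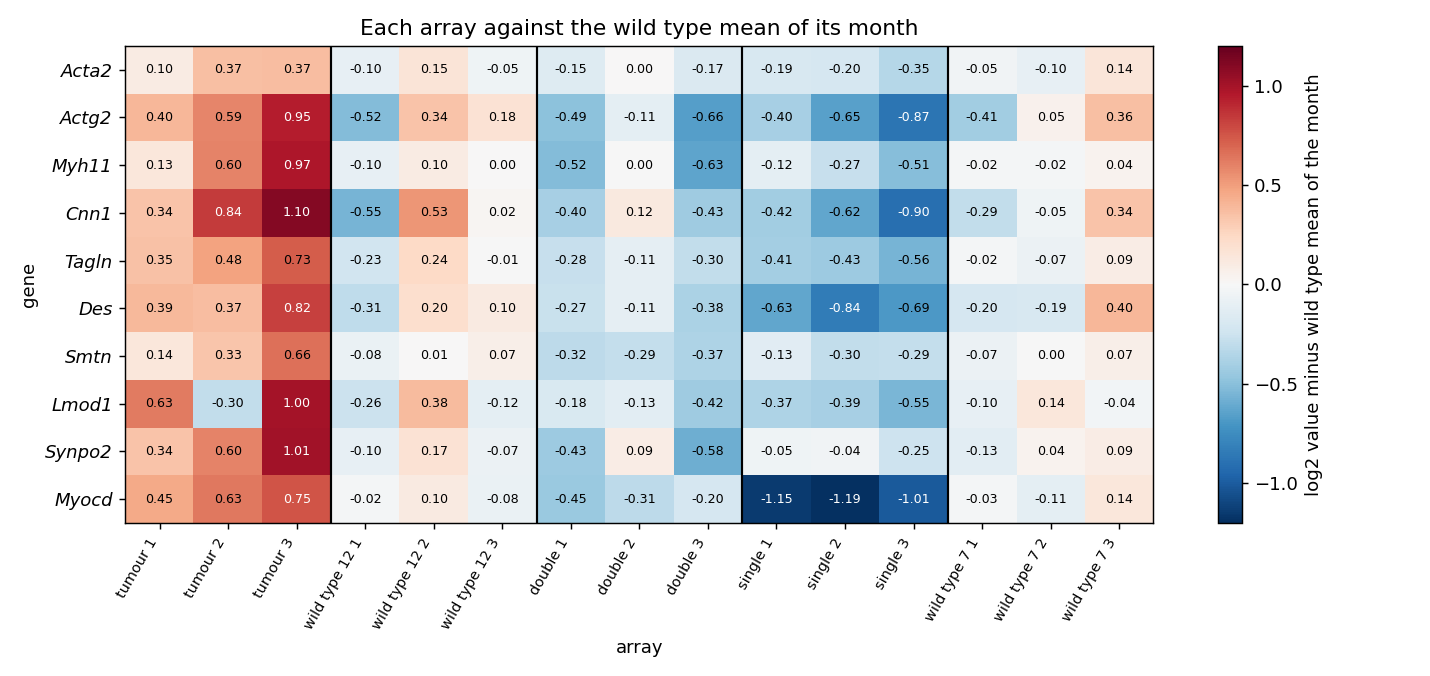
Log2(intensity + 16) of each smooth muscle gene on each array minus the mean of the 3 wild type arrays of its month, with red above and blue below. Tumour array 3 is the reddest column, double mutant array 2 is near the wild type mean for most genes, and the Myocd cells of the single mutant arrays lie at -1.15, -1.19 and -1.01.

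The 2 mutant genotypes, which differ by the Smad4 deletion, were also set against each other directly. Myocd was 1.74-fold higher in double mutant than in single mutant lungs (log2 fold change 0.80, 95% confidence interval 0.58 to 1.01, adjusted p 0.00633), and this held in all 6 fits that left out 1 array of these groups. It was the only call among the 10 (1 higher and 0 lower), where 0.918% of all genes were called higher and 0.841% lower. For 4 of the 10 genes (Acta2, Tagln, Des and Myocd) double mutant lungs lay wholly above single mutant lungs, and for 0 below, against 14.4% of all genes upward and 14.2% downward. In all, 7 values lay above 0 and 3 (Myh11, Smtn and Synpo2) below, with a median of 0.21 beside -0.0018 over all genes.

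Between those genes without a call, the intervals show what remained possible. The log2 difference was 0.46 for Des (95% confidence interval 0.095 to 0.83), 0.24 for Tagln (0.056 to 0.42) and 0.41 for Cnn1 (-0.061 to 0.88), with adjusted p values of 0.195, 0.184 and 0.344. For Myh11 it was -0.083 (-0.45 to 0.29), for Smtn -0.087 (-0.25 to 0.074) and for Synpo2 -0.20 (-0.57 to 0.17).

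The change in tumours at 12 months and that in double mutant lungs at 7 months, each against its own wild type lungs, were compared in a single fit of 15 arrays. The difference was above 0 for all 10 genes, with a median of 0.86 beside 0.0028 over all genes. It was called for 3 of the 10, all upward: Myocd (log2 difference 0.93, adjusted p 0.00591), Tagln (0.75, adjusted p 0.0362) and Smtn (0.70, adjusted p 0.0310). Over all genes 1.75% were called higher and 1.41% lower. The Myocd call held in all 12 fits that left out 1 array. The Tagln call held in 5 of 12 and the Smtn call in 4 of 12, with values of 0.63 to 0.87 and of 0.56 to 0.82. The wild type lungs themselves differed between the ages, with Myocd means of 86.4 at 12 months and 157 at 7 months. For Tagln these means were 1886 and 2440, and for Smtn 213 and 362. Smtn averaged 285 on the tumours and 286 in double mutant lungs, Myocd 141 and 123, and Tagln 2704 and 2081. The series describes the arrays of 12 months as a study of their own, so age and set of arrays go together. The 2 ages also differ in tissue (tumour against whole lung) and in the levels of Xist and Eif2s3y. Month, set of arrays, tissue and these levels cannot be told apart.

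For 5 of the 10 genes other probe sets of the same gene were measured, 8 in all, and 0 of them were called in any of the 5 comparisons. In tumours 6 of the 8 lay above wild type, and in double mutant and in single mutant lungs 6 of the 8 lay below. All but 2 of the 8, both of Synpo2, had group means under 100. The second probe set of Myocd did not repeat the fall seen with the first. It read 35.1, 23.6 and 29.5 in double mutant, 22.0, 34.3 and 27.7 in single mutant, and 17.7, 38.4 and 19.6 in wild type lungs, with log2 fold changes of 0.16 for double mutant and 0.12 for single mutant lungs (adjusted p 0.701 and 0.759). The second probe set of Des read 43.9, 39.8 and 48.6 in single mutant against 39.5, 44.4 and 31.4 in wild type lungs, a log2 fold change of 0.15 (adjusted p 0.607). Of the 2 brighter Synpo2 probe sets, 1 read 126, 112 and 135 in single mutant against 178, 204 and 275 in wild type lungs. Its log2 fold change was -0.73 (adjusted p 0.0517), and that of the other was -0.17 (adjusted p 0.522). The sources used here do not say which transcripts these probe sets read.

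Other genes of smooth muscle were split in direction in tumours and lay mostly below wild type in double mutant lungs. Of 19 measured contractile and cytoskeletal genes outside the 10, 2 rose in tumours, the tropomyosin Tpm2 (log2 fold change 0.52, adjusted p 0.0329) and the small heat shock protein Hspb6 (0.59, adjusted p 0.0352), and 3 fell: Itga8, Susd5 and Ppp1r14a, an inhibitor of myosin phosphatase (-1.37, adjusted p 0.0361). Of the same 19, 0 rose and 1 fell in double mutant lungs, the actin-associated protein Pdlim7 (-0.37, adjusted p 0.0364). In single mutant lungs 3 fell, Pdlim7 (-0.69), the actin crosslinker Flna (-0.36) and Tpm2 (-0.44), and 1 rose, Tpm1 (0.23). In tumours 9 of the 19 lay above wild type and 10 below, with a median of -0.025. In double mutant lungs 18 of 19 lay below, with a median of -0.22, and for 11 all 3 lungs lay below all 3 wild type lungs, against 10.9% of all genes. The single mutant lungs had 13 of 19 below, with a median of -0.12, 8 of them without overlap, against 15.6% of all genes.

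Of 15 measured signalling and channel genes, 3 rose in tumours and 3 fell. The potassium channel subunit Kcnmb1 rose by a log2 fold change of 1.70 (adjusted p 0.00931) and Pln, the calcium pump regulator phospholamban of heart and smooth muscle, by 1.56 (adjusted p 0.0259). The kinase Prkg1 fell by 0.94 and the guanylate cyclase subunit Gucy1b1 by 1.39, both parts of the relaxation pathway of nitric oxide. Kcnmb1 also rose in double mutant (0.85) and in single mutant lungs (0.98), where the angiotensin receptor Agtr1a fell in the first (-0.58) and Prkg1 in the second (-0.47). Of the 15, 7 lay below wild type in tumours, 12 in double mutant and 8 in single mutant lungs.

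Of 18 measured regulators, the Krüppel-like factor Klf5 rose in tumours (log2 fold change 1.52, adjusted p 0.00320) and in double mutant lungs (0.35, adjusted p 0.0298). Mef2a and Foxf1, a factor of lung mesenchyme, fell in tumours (-0.49 and -1.23). Foxo4 fell in double mutant lungs (-0.35). In single mutant lungs 4 fell: Srf, the serum response factor that myocardin binds (-0.40, adjusted p 0.00968), Foxo4 (-0.34), Klf4 (-0.39) and Heyl (-0.28). Mef2c rose there (0.35, adjusted p 0.0481), and it was the only regulator called between the genotypes, lower in double mutant than in single mutant lungs (-0.51, adjusted p 0.0475). Srf had log2 fold changes of 0.10 in tumours and -0.19 in double mutant lungs, without a call. Of the 18, 12 lay below wild type in tumours, 16 in double mutant and 12 in single mutant lungs. The double and single mutant counts of these lists rest on the same wild type arrays.

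The 10 genes varied together over the arrays, less closely among the lungs alone. After the wild type mean of the month was taken away, the 45 pairs had Pearson correlations of 0.64 to 0.97 over the 15 arrays, with a median of 0.86. Over the 12 lung arrays without the tumours the median was 0.75, and the lowest values were 0.19 for Synpo2 and Myocd, 0.41 for Des and Synpo2 and 0.47 for Myh11 and Myocd. The closest pair was Actg2 and Cnn1. Among 11108 genes with a mean log2(intensity + 16) of at least 7, those most like the mean of the 10 were Tpm2 (0.97), Hspg2 (0.97), Adcy5 (0.96), Jph1 (0.94) and Plin4 (0.94). The gene closest to Acta2, Actg2, Myh11, Cnn1 and Synpo2 was in each case another of the 10. For Myocd it was Cars (0.98), while Des was its closest among the 10 (0.92). Those of Tagln, Des, Smtn and Lmod1 were Tpm2 (0.97), Hspb7 (0.96), Ecm1 (0.96) and Obi1 (0.92). These correlations are descriptions without a test, since the arrays share their groups. The spread within groups was wider than usual for these genes in 4 of the 5 groups: the median SD of the 10 on the log2 scale was 0.27 in tumours, 0.19 in wild type lungs of 12 months, 0.15 in double mutant, 0.10 in single mutant and 0.13 in wild type lungs of 7 months, against 0.15, 0.12, 0.12, 0.086 and 0.13 over all genes in the same order.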

How the data were processed

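RNA of 15 mouse lung and lung tumour samples was measured on single-colour Affymetrix arrays of 45101 probe sets. According to the labels' protocols, TRIzol extraction and an RNeasy clean-up gave total RNA, which was labelled with the 3' IVT Express kit. This kit reads mostly the 3' ends of transcripts. Each deposited value is a linear intensity of 1 probe set (0.48 to 17030). The sources used here do not say how the authors corrected background, summarised probes or scaled arrays. Medians of the arrays were 90.9 to 99.5. The number of arrays limits the precision.

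Intensities were turned into log2(intensity + 16), which understates changes of dim genes, and fitted with limma 3.58.1 under R 4.3.3 (two-sided moderated tests by lmFit and eBayes, Benjamini-Hochberg over 18193 genes, threshold 0.05). The 12-month groups were fitted on 6 arrays, the 7-month groups on 9 and the difference of the effects on 15. All fold changes are on this scale, and the steps were tested on simulated data. The labels do not tie each array to a separate animal, and 8 arrays of 7 months read both Xist and the Y-linked Eif2s3y, so p-values measure the spread between these samples, which may be technical. Of the 12-month arrays the numbers are only names.

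The 10 genes and all other lists were chosen with earlier results of these data known. All 10 genes are named, as are the genes most alike by Pearson correlation. Other pathway genes were to be named when called, at most 4 per list and comparison by smallest adjusted p. More than 4 are named for contractile genes in tumours and for regulators in single mutant lungs, and Srf is also given without a call. The near match of the CArG box, and the fits of every probe set by itself, were added after seeing data. The gene deleted beside Smad4 is not reported here. Alternatives covered the pseudocount, normalization, dim genes, spread model, array weights, probe set choice, arrays in the fit, sex, replicate number and leaving out arrays.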

Additional observations from a re-analysis of the deposited data

Results flagged for a closer look

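Myocd differed between the genotypes at 7 months by a direct test: its log2 fold change of double mutant over single mutant lungs was 0.80, with 3 of 3 double mutant lungs above 3 of 3 single mutant lungs. For 3 genes the change in tumours at 12 months differed from that in double mutant lungs at 7 months, by a contrast of both effects: Myocd by a log2 difference of 0.93, Tagln by 0.75 and Smtn by 0.70. Each of these genes had a mean above wild type of the same month in the tumours and below it in the double mutant lungs. The wild type means differed between the months, which were also separate sets of arrays, and Smtn averaged 285 on the tumours and 286 in double mutant lungs.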

How the results depend on the processing

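Of the 10 genes, 1 was called in tumours; this count was 2 without the dimmer genes (which leaves out Lmod1 and Myocd), 3 with a variance trend and robust fitting, 6 with all 15 arrays in one fit and 0 with sex as a block. For single mutant lungs 4 were called, and the other settings gave 3 (the mean of all probe sets, or all 15 arrays in one fit) to 6 (without the dimmer genes). Over all genes 2765 were called there, and 2188 with all 15 arrays in one fit. For the difference of the effects 3 of the 10 were called, and 2 with a pseudocount of 1 to 4 with one of 64 or with a variance trend and robust fitting. Over all genes this difference was called for 576, for 382 with a pseudocount of 1 and for 835 with one of 64. In double mutant lungs 1 of the 10 was called, and 0 with array weights, with all 15 arrays in one fit or with only the 2 groups. Over all genes 1421 were called there, and 767 with only the 2 groups. Between double and single mutant lungs 1 of the 10 was called, and 0 without the dimmer genes, where Myocd is not tested, or with the mean of all probe sets. When 1 array was left out, the counts ran from 0 to 2 in tumours, from 0 to 2 in double mutant lungs and from 2 to 5 in single mutant lungs. They were 1 in every case between the genotypes and ran from 1 to 5 for the difference of the effects. Over all genes these fits called 842 to 3326 in tumours, 942 to 1217 in double mutant and 1648 to 2720 in single mutant lungs. They called 99 to 203 between the genotypes and 270 to 1830 for the difference of the effects. Where no cause is named, the cause was not tested.

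With the replicate number as a block the counts at 7 months were 1 in double mutant lungs (Myocd in place of Smtn, whose adjusted p was 0.0668), 4 in single mutant lungs and 1 between the genotypes. Deviations from the group means correlated at -0.13 to 0.16 between arrays of the same number and at -0.18 to 0.15 between arrays of different numbers. With 3 arrays per group this check cannot decide whether the numbers pair the samples.

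Of the log2 fold changes of single genes under the listed alternatives, 847 kept direction and side of the threshold, 39 lost a call, 31 gained one and 3 reversed, all 3 between double and single mutant lungs without a call. These were Synpo2 with the mean of all probe sets (0.11) and Myh11 without single mutant array 1 (0.0073) or without double mutant array 3 (0.040), with a range of -0.27 to 0.040 when 1 array was left out. With each probe set by itself, chosen after seeing the data, the second probe set of Des reversed in tumours (-0.13), single mutant lungs (0.15), between the genotypes (-0.18) and in the difference of the effects (-0.10). That of Myocd reversed in double mutant (0.16) and single mutant lungs (0.12), and an Acta2 probe set in double mutant lungs (0.11). Synpo2 probe sets reversed in tumours (-0.025) and between the genotypes (0.074, 0.18 and 0.38).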
